A study of Homo sapiens with 6 samples.

Results

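The genes described here were the forkhead factors FOXO1, FOXO3 and FOXO4 together with 7 growth factor signalling genes that FOXO factors are known to raise when Akt signalling is low. The latter were the receptor genes INSR, IGF1R, ERBB2 and ERBB3, the adaptor genes IRS1 and IRS2, and the inhibitor gene PIK3IP1. They were chosen by symbol, and each of the 10 was found among the 27470 genes of the count table. Their mRNA was measured by sequencing of 3ʹ ends in 22Rv1, an established human cell line from a prostate cancer that grows after castration, into which ABHD5 had been brought on a lentivirus, with expression switched on by doxycycline (Dox). Cells that carry the vector were selected with G418. The cells were grown for 48 h without Dox (3 libraries, labelled control) or with Dox (3 libraries, labelled as overexpressing ABHD5), so both conditions carry the transgene and Dox and ABHD5 cannot be told apart. The Dox dose of these libraries is not given. The labels do not say that replicates came from separate cultures, so p-values measure the spread between these libraries, which may be technical.

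FOXO factors are transcription factors that link nutrient and growth factor signals to gene expression. Insulin, IGF and ErbB ligands activate receptor tyrosine kinases, which recruit PI3K, in part through IRS adaptors, and PI3K activates Akt. Akt phosphorylates FOXO factors and keeps them out of the nucleus. When Akt activity is low, FOXO factors enter the nucleus and raise, among other genes, several receptors and adaptors of the same pathway, a feedback that is well known in cancer cells treated with PI3K or Akt inhibitors.

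Between 3394672 and 7271771 reads were counted on genes per library. Levels below are CPM, the reads of a gene scaled to the library total after TMM normalization, and changes are log2 fold changes with Dox against without Dox. The edgeR adjusted p given below comes from the quasi-likelihood test, adjusted by Benjamini-Hochberg over the 12233 genes tested. ABHD5 itself had 243, 187 and 360 counts without Dox and 579, 470 and 698 with Dox, a 1.88-fold rise (edgeR adjusted p = 1.978e-04). Of 12 markers of fibroblasts, blood cells, endothelium and liver, 5 (PDGFRB, CD3E, PECAM1, VWF and CDH5) had no read in any library. The summed level of the 12 was 8.62 to 14.3 CPM without Dox and 7.24 to 10.6 CPM with Dox. Members of this list differed in direction. The fibroblast collagen gene COL1A1, 1 of 2 that could be tested, had 14, 5 and 12 counts without Dox and 24, 13 and 58 with Dox (2.33-fold, edgeR adjusted p = 0.0313, groups overlapping), and the liver gene ALB had 6, 6 and 18 counts without Dox and 0 in each library with Dox. All 10 prostate epithelial markers were detected. Their summed level was 1739 to 1843 CPM without Dox and 1138 to 1268 CPM with Dox. Of the 10, 6 were called lower (60%, beside 13.7% of all genes tested). The log2 fold change was negative for all 10, with a median of -0.55. The part of these shifts in the values below was not tested. In bulk RNA, a change in the share of a kind of cell and a change of RNA per cell cannot be told apart.

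The 10 genes moved in both directions. ERBB2, a ligandless ErbB receptor, rose 3.12-fold and FOXO4 rose 1.43-fold, while IRS1, an insulin and IGF receptor adaptor, fell 1.77-fold and FOXO1 fell 1.44-fold. The other 6 genes did not pass the test. At an adjusted p under 0.05, 4 of the 10 genes differed, against 25.5% of all genes tested. They were 2 higher and 2 lower, where 11.9% of all genes were called higher and 13.7% lower. The 3 libraries with Dox were all above the 3 without Dox for 4 of the genes and all below for 2, against 19.0% and 20.5% of all genes. The median log2 fold change of the 10 genes was 0.14, and that of all genes tested was 0.02.

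**Figure D1:**
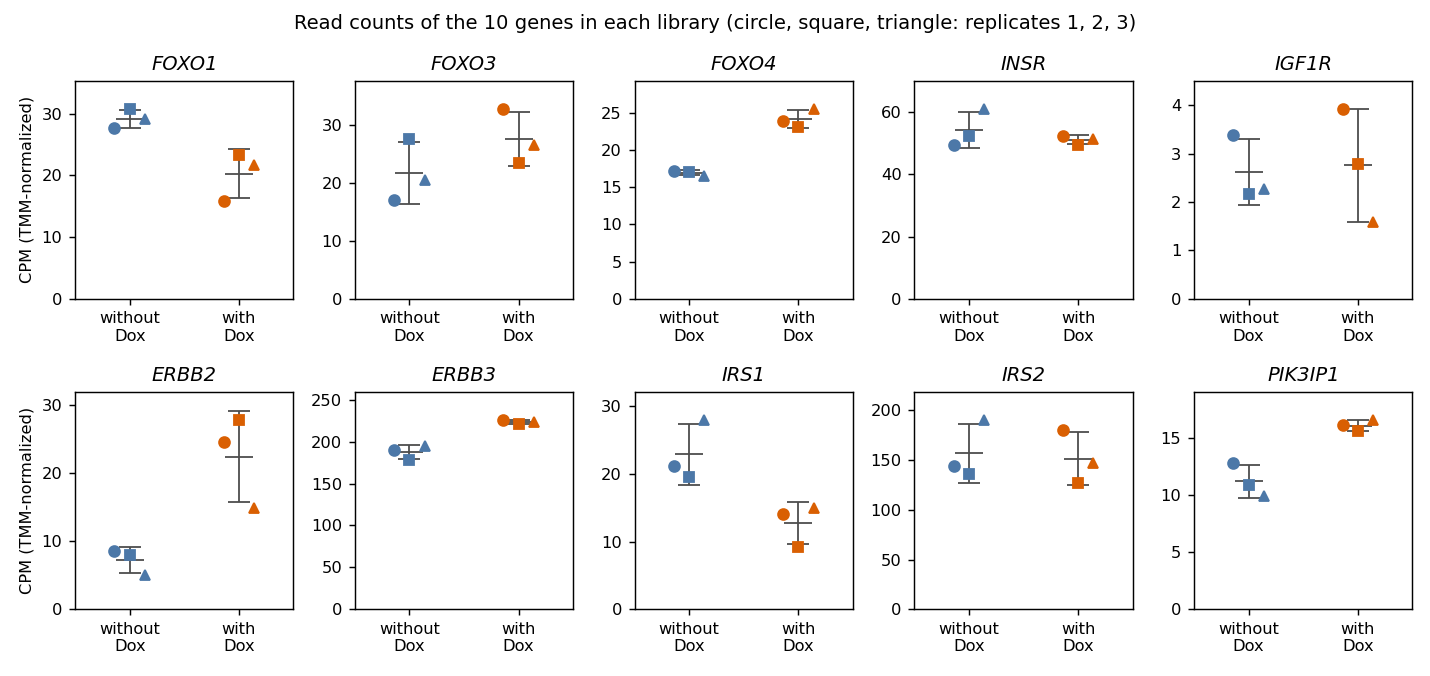
Level of each of the 10 genes in CPM after TMM normalization, in the 3 libraries without Dox (blue) and the 3 with Dox (orange). Horizontal marks and bars are the mean and SD. ERBB2, ERBB3, FOXO4 and PIK3IP1 are higher in each library with Dox, and FOXO1 and IRS1 are lower in each.

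FOXO1, the FOXO factor best known for insulin-regulated transcription, is found on chromosome 13 (hg38, 40555667 to 40666641). Its level was 27.7, 30.7 and 29.2 CPM in the libraries without Dox and 15.9, 23.4 and 21.7 CPM in those with Dox. The groups did not overlap, and replicate 1 with Dox was the lowest. The fit gave FOXO1 a log2 difference of -0.52 (standard error 0.18, 95% interval -0.90 to -0.14, edgeR adjusted p = 0.0428). This call lies near the threshold. It was lost in 8 of 15 alternatives, among them DESeq2 and each fit that left out a library without Dox or replicate 1 with Dox, and in the last of these the log2 fold change was -0.38 (edgeR adjusted p = 0.180).

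FOXO4, a FOXO factor encoded on the X chromosome from 71095851 to 71103532, moved the other way. Its level was 17.2, 17.1 and 16.6 CPM without Dox and 23.9, 23.1 and 25.5 CPM with Dox. Replicates lay close to each other, with an SD of 0.34 CPM without Dox and 1.21 CPM with Dox, and the groups did not overlap. The coefficient of variation was 2% and 5.01%, where counting error alone would give 12% and 9.23%. This closeness is therefore no measure of precision. The log2 fold change was 0.52 (standard error 0.18, 95% interval 0.15 to 0.89, edgeR adjusted p = 0.0391). It lost its call in 7 of 15 alternatives, among them DESeq2 and each fit that left out 1 library except that without replicate 2 with Dox, but its log2 fold change stayed between 0.47 and 0.64.

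FOXO3, a FOXO factor known for stress responses and longevity, lies on chromosome 6 from 108559835 to 108684774. It had 17.0, 27.6 and 20.4 CPM without Dox and 32.6, 23.4 and 26.5 CPM with Dox. The groups overlapped, since replicate 2 without Dox exceeded replicates 2 and 3 with Dox. FOXO3 differed by a log2 fold change of 0.36 (standard error 0.20, 95% interval -0.06 to 0.78, edgeR adjusted p = 0.205). FOXO3B is a near-identical copy that could share reads with FOXO3. It had 14 to 20 counts without Dox and 16 to 38 with Dox, and with the reads of both genes summed the log2 fold change was 0.34 (edgeR adjusted p = 0.198).

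The remaining family gene, FOXO6, is less studied and stays largely nuclear. It had 12.0, 12.7 and 12.2 CPM without Dox and 18.3, 22.0 and 18.4 CPM with Dox, with no overlap. Its log2 fold change was 0.66 (standard error 0.20, edgeR adjusted p = 0.0213), a call that was lost when replicate 1 or 3 without Dox, or replicate 2 with Dox, was left out (edgeR adjusted p = 0.0792, 0.0619 and 0.0592).

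Within a library, FOXO1 made up 44.7%, 40.7% and 44.1% of the reads of FOXO1, FOXO3 and FOXO4 without Dox and 21.9%, 33.5% and 29.4% with Dox. Such a share does not depend on how libraries are scaled to each other. The mean went from 43.2% ± 2.14 to 28.3% ± 5.86 (SD, n = 3 each), and the groups did not overlap. Of the 95% Wilson intervals of single libraries, which cover counting error only, that of replicate 2 with Dox (27.9% to 39.5%) overlapped those of all 3 libraries without Dox, which start at 34.8% to 39.2%. The share shows unequal change between these genes and not which of them changed.

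**Figure D2:**
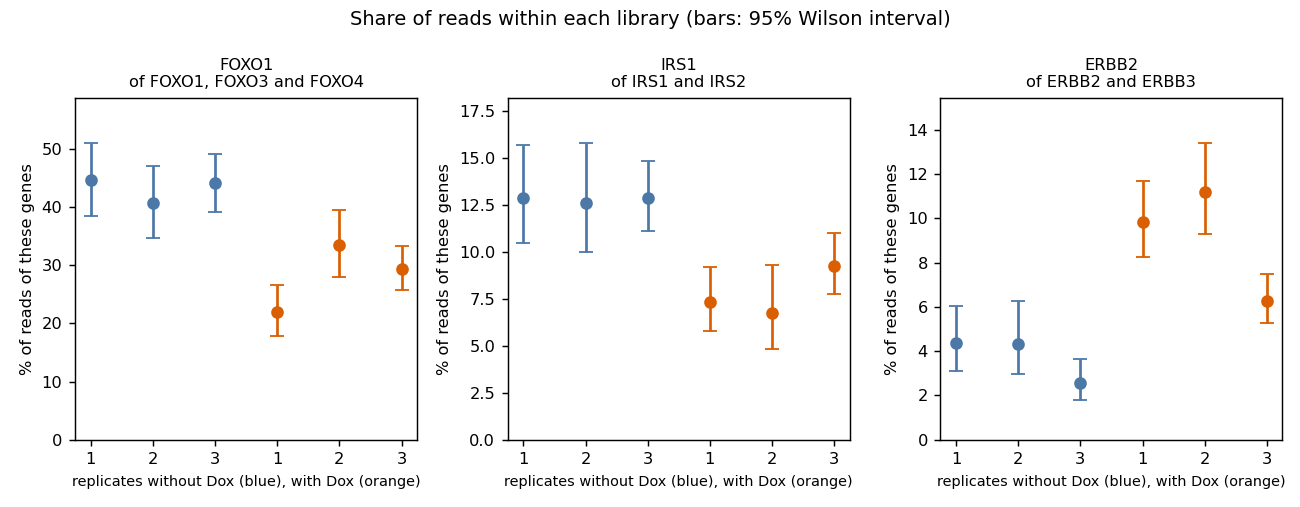
Reads of FOXO1, IRS1 and ERBB2 as a percentage of the reads of the genes named above each panel, in the replicates without Dox (blue) and with Dox (orange), with 95% Wilson intervals. The shares of FOXO1 and IRS1 are lower, and that of ERBB2 is higher, in each library with Dox.

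Among the receptors, ERBB2 had the largest log2 fold change of the 10 genes, in the fit reported and in each alternative. It encodes the ErbB receptor HER2, which has no known ligand and signals in pairs with other ErbB receptors, and it lies on chromosome 17 from 39687914 to 39730426. Its counts were 33, 26 and 29 without Dox and 113, 100 and 114 with Dox. These correspond to 8.62, 8.06 and 5.06 CPM without Dox and 24.6, 27.8 and 14.97 CPM with Dox. The groups stood apart, and replicate 3 was the lowest in both conditions. The log2 fold change was 1.64 (standard error 0.28, 95% interval 1.06 to 2.22, edgeR adjusted p = 2.832e-04). It stayed past the threshold in each of 15 alternatives, between 1.39 and 1.89.

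The 3ʹ end of ERBB2 overlaps a neighbour. MIEN1, on the opposite strand, shares 163 of the 970 bases of the last exon of the canonical ERBB2 transcript. That is the end from which 3ʹ libraries draw their reads. Over all annotated ERBB2 exons, MIEN1 shares 571 bases. Whether reads were counted by strand is not stated, so the counts of both genes are uncertain. MIEN1 rose from 91.1 ± 14.6 to 127.9 ± 13.7 CPM (SD, n = 3 each) and passed the test (log2 fold change 0.50, standard error 0.14, edgeR adjusted p = 0.0147). PGAP3, which overlaps other ERBB2 exons by 144 bases, had a log2 fold change of 0.17 (edgeR adjusted p = 0.633). The part of shared reads in the rise of ERBB2 was not tested. MIEN1, PGAP3 and FOXO3B were chosen after values were seen.

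ERBB3 encodes an ErbB receptor with a weak kinase that recruits PI3K when paired with ERBB2, and lies on chromosome 12 from 56076799 to 56103505. It had 189.4, 178.3 and 194.1 CPM without Dox and 225.5, 221.0 and 223.6 CPM with Dox. The groups did not overlap, but the difference was small against the test, with a log2 fold change of 0.25 (standard error 0.12, 95% interval 0.01 to 0.50, edgeR adjusted p = 0.123). It passed with library totals alone (0.37, edgeR adjusted p = 0.0232). ERBB2 made up 4.35%, 4.33% and 2.54% of the reads of ERBB2 and ERBB3 without Dox and 9.83%, 11.2% and 6.28% with Dox. The lowest share with Dox, in replicate 3, had a 95% Wilson interval of 5.25% to 7.49%, which overlapped that of replicates 1 and 2 without Dox (3.12% to 6.05% and 2.97% to 6.26%).

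INSR, the insulin receptor gene on chromosome 19 from 7112255 to 7294414, had 49.6, 52.4 and 60.9 CPM without Dox and 52.4, 49.5 and 51.4 CPM with Dox. The groups overlapped, and the log2 fold change was -0.09 (standard error 0.14, 95% interval -0.39 to 0.20, edgeR adjusted p = 0.674). IGF1R, the receptor gene for IGF ligands on chromosome 15 from 98648539 to 98964530, had only 13, 7 and 13 counts without Dox and 18, 10 and 12 with Dox. Few reads fell on IGF1R, and the groups overlapped. Its log2 fold change was 0.02 with a standard error of 0.44, and the 95% interval was -0.91 to 0.95 (edgeR adjusted p = 0.982).

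**Figure D3:**
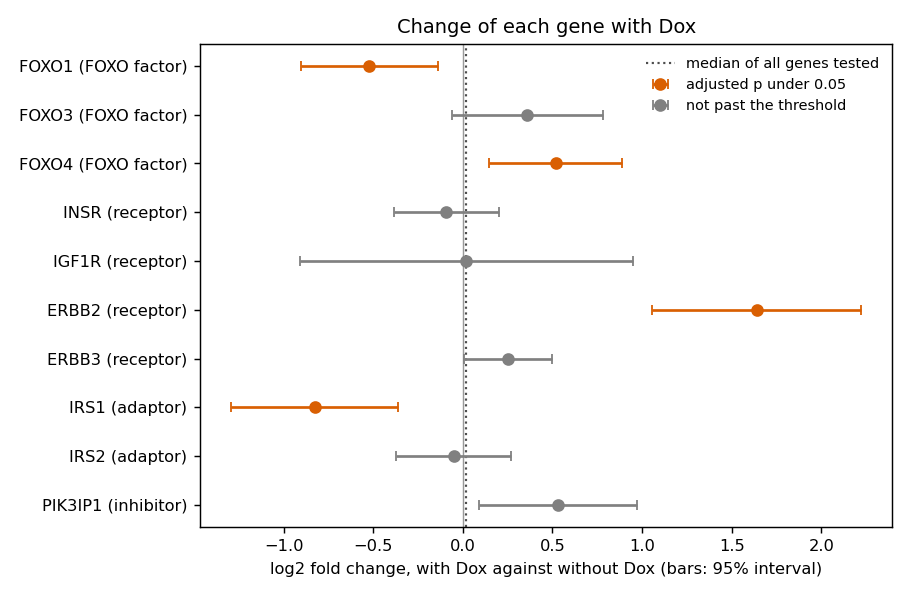
Log2 fold change of each gene with Dox against without Dox, with its 95% interval (3 libraries per condition, edgeR). ERBB2 and FOXO4 lie above 0 and FOXO1 and IRS1 below 0 past the threshold (orange), and IGF1R has the widest interval.

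The 2 adaptor genes, whose products are phosphorylated by the insulin and IGF receptors and then bind PI3K, parted. IRS1, on chromosome 2 from 226731312 to 226799820, had 21.2, 19.5 and 27.9 CPM without Dox and 14.1, 9.18 and 14.97 CPM with Dox. No library with Dox reached the lowest library without Dox. IRS1 fell by 0.83 on the log2 scale (standard error 0.22, 95% interval -1.29 to -0.36, edgeR adjusted p = 0.0102). It lost its call without replicate 3 without Dox, the library in which IRS1 was highest (-0.65, edgeR adjusted p = 0.0718).

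IRS2, on chromosome 13 from 109752695 to 109786583, had 143.7, 135.5 and 189.7 CPM without Dox and 179.4, 127.2 and 147.2 CPM with Dox. Its counts were 437 to 1121 per library, and replicates of a condition differed by more than counting alone would give. The coefficient of variation was 18.7% without Dox and 17.4% with Dox, where counting error would give 4.03% and 3.72%. The groups overlapped and the log2 fold change was -0.05 (standard error 0.15, 95% interval -0.37 to 0.27, edgeR adjusted p = 0.846). IRS1 made up 12.8%, 12.6% and 12.8% of the reads of IRS1 and IRS2 without Dox and 7.30%, 6.74% and 9.23% with Dox. These shares varied little between libraries without Dox (SD 0.136 percentage points), and they did not overlap between conditions. That spread is smaller than counting error would give, since the 95% Wilson interval of replicate 1 without Dox was 10.5% to 15.7%. The 95% Wilson interval of replicate 3 with Dox (7.74% to 10.97%) overlapped those of replicates 1 and 2 without Dox, which start at 10.5% and 9.97%.

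PIK3IP1, which encodes a membrane protein that binds PI3K and dampens its activity, lies on chromosome 22 from 31281594 to 31292534. It had 12.8, 10.9 and 9.95 CPM without Dox and 16.1, 15.6 and 16.6 CPM with Dox. The groups did not overlap. The log2 fold change of 0.53 (standard error 0.21, 95% interval 0.09 to 0.97) did not pass the threshold (edgeR adjusted p = 0.0708). It passed with upper-quartile normalization and with library totals alone (edgeR adjusted p = 0.0473 and 0.0275).

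**Figure D4:**
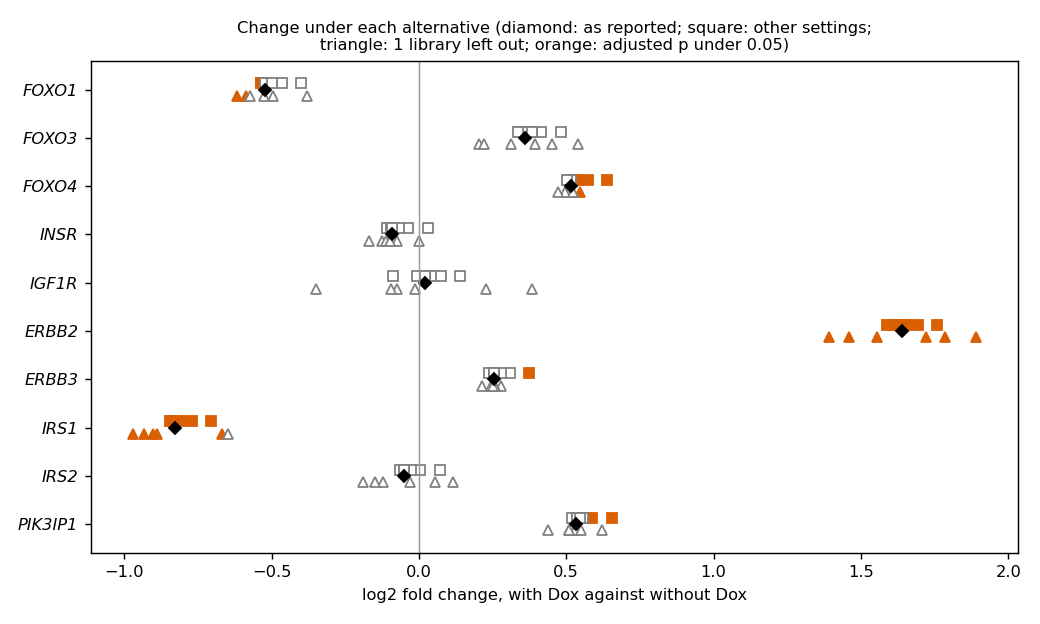
Log2 fold change of each gene as reported (diamond), under other settings (squares) and with 1 library left out (triangles), filled orange where the adjusted p is under 0.05. ERBB2 is past the threshold in each, FOXO1 and FOXO4 in some, and INSR, IGF1R and IRS2 scatter around 0.

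Promoter windows of 250 bases before to 50 after the start (RefSeq, GRCh38.p14) were searched on both strands for the letters GTAAACA, a core sequence that FOXO factors bind, and for CAAAACA, a core of insulin response sequences. Both end in AAACA but differ in their first letters, so no stretch can match both. Windows were at hand for 9 of the 10 genes, 13 windows in all, and ERBB3 was not among them. GTAAACA was found in 2 of the 13 windows, of FOXO4 and PIK3IP1, and in 3.42% of 35116 windows of all genes. CAAAACA was found in 1 of the 13 windows, of IRS2, and in 4.92% of all windows. The share of all genes with a match was not computed. The matches are printed 5ʹ to 3ʹ on the strand of the gene, with the matched letters in capitals, because FOXO4 and PIK3IP1 are among the genes that were higher in each library with Dox, and IRS2 held the only match to the other motif. The FOXO4 match starts at base 24 of the transcript and lies in chrX:71095863-71095891 on the plus strand. The PIK3IP1 match, in the reverse orientation, starts at base 17 of one of its 2 annotated starts and lies in chr22:31292455-31292483 on the minus strand. The IRS2 match, also reversed, starts at position -40 and lies in chr13:109786606-109786634 on the minus strand.
FOXO4: cccggcgagtgGTAAACAgagacgtcagg
PIK3IP1: taaagagaggcTGTTTACcagaacagcat
IRS2: gagtcacatgtTGTTTTGctcttcttagt
These matches describe the letters alone. The windows of FOXO1, FOXO3, INSR, IGF1R, ERBB2 and IRS1 held neither run of letters.

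Other genes that FOXO factors are known to raise were compared as a list compiled by hand. Of 35 genes, 27 passed the filter on low counts. Among these, 11 rose and 3 fell, 40.7% and 11.1% of those tested, beside 11.9% and 13.7% of all genes tested. The median log2 fold change was 0.22. The count of rises was 7 when replicate 1 of either condition was left out, and it was 7 to 13 over all alternatives. The count of falls was 1 when replicate 1 or 3 without Dox, or 1 or 2 with Dox, was left out. GADD45A, a growth arrest and DNA damage gene, had 31.3, 34.7 and 31.6 CPM without Dox and 70.0, 81.0 and 88.4 CPM with Dox, a log2 fold change of 1.30 (standard error 0.15, edgeR adjusted p = 4.216e-06). KLHL24, a substrate adaptor gene of a ubiquitin ligase, rose by 0.88 on the log2 scale (standard error 0.15, edgeR adjusted p = 2.367e-04). CDKN1A, which encodes the CDK inhibitor p21, rose by 0.68 (standard error 0.12, edgeR adjusted p = 4.722e-04). GADD45A, CDKN1A, the sestrin genes SESN1 and SESN2, and BBC3 are also known targets of p53, so the list is not specific to FOXO. These did not all move in the same direction, as BBC3 had a log2 fold change of -0.25 (edgeR adjusted p = 0.146).

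The FOXO targets named next, except BCL6 and TSC22D3, were chosen after their values were seen. The pro-apoptotic gene BCL2L11 rose by 0.69 on the log2 scale and CCNG2, which encodes a cyclin linked to cell cycle exit, rose by 0.75 (edgeR adjusted p = 0.00728 and 0.0246). The autophagy genes GABARAPL1 and MAP1LC3B rose by 0.83 and 0.60 (edgeR adjusted p = 0.00146 and 0.00180). SESN2 and SESN3, which encode stress-induced inhibitors of mTORC1, rose by 0.52 and 0.49 (edgeR adjusted p = 0.0110 and 0.0358), and SESN1 had 0.58 (edgeR adjusted p = 0.0521). Other well-known targets did not pass the test, such as CDKN1B with 0.24, SOD2 with 0.09, TXNIP with -0.16 and PDK4 with 0.09 (edgeR adjusted p = 0.158, 0.723, 0.429 and 0.728). FBXO32 and the pro-apoptotic gene BBC3 had -0.36 and -0.25 (edgeR adjusted p = 0.0826 and 0.146), both lower in each library with Dox. Of the 27 genes tested, 14 were higher and 5 lower in each library with Dox, beside 19.0% and 20.5% of all genes tested. BCL6, a transcriptional repressor gene, went against the list, from 63.7, 61.4 and 65.5 CPM to 30.0, 32.3 and 32.0 CPM (log2 fold change -1.02, standard error 0.14, edgeR adjusted p = 3.671e-05). TSC22D3 fell by 0.49 on the log2 scale (edgeR adjusted p = 0.0328), a call that was lost in 6 of 15 alternatives. These were upper-quartile normalization, library totals alone, and leaving out replicate 1 or 3 without Dox or replicate 1 or 2 with Dox, with the weakest value, -0.34, when replicate 3 without Dox was left out (edgeR adjusted p = 0.189). DEPP1 had 10, 12 and 15 counts without Dox and 4, 3 and 10 with Dox, a log2 fold change of -1.44 (edgeR adjusted p = 0.0262). It is among the falls counted above, but it passed the filter on low counts only through the libraries without Dox. Its call therefore depends on the group in which it was high.

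Of 4 genes that FOXO factors are known to lower, 3 were tested, of which 0 rose and 2 fell. These were 0% and 66.7%, beside 11.9% and 13.7% of all genes tested. A list of 3 genes is too short to read these shares as a result about FOXO repression. CCND1, the cyclin D1 gene, fell by 0.52 on the log2 scale, from 5488 ± 261 to 3827 ± 274 CPM (SD, n = 3 each, edgeR adjusted p = 0.00669). TRIB3, which encodes a pseudokinase that binds Akt, fell by 0.41 (edgeR adjusted p = 0.0208), and SREBF1 had 0.21 (edgeR adjusted p = 0.380). CCND2 had no read in any library. The TRIB3 call was lost when replicate 2 or 3 without Dox or replicate 2 with Dox was left out, and with library totals alone (edgeR adjusted p = 0.0502, 0.0676, 0.0594 and 0.0876).

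Of 24 genes whose products act on FOXO factors or on Akt, 21 were tested, of which 1 rose and 1 fell, with a median log2 fold change of -0.06. These were 4.76% in each direction, beside 11.9% of all genes tested higher and 13.7% lower. PDPK1, the kinase gene that acts on Akt from PI3K products, rose by 0.41 on the log2 scale (standard error 0.13, edgeR adjusted p = 0.0240). PRMT1, an arginine methyltransferase gene whose product is known to modify FOXO1, fell by 0.44 (standard error 0.13, edgeR adjusted p = 0.0205). Both calls were lost when replicate 1 or 2 without Dox or replicate 1 with Dox was left out, that of PDPK1 also when replicate 3 of either condition was, and that of PRMT1 with library totals alone. Of 7 class I PI3K subunit genes, 5 were tested and 0 passed the threshold with edgeR. Among them, 2 had an unadjusted p under 0.05, and 0 passed with DESeq2, limma-voom or the exact test. Of all genes tested, 25.5% were called, and 5 genes are too few to set 0 calls apart from that share. The median log2 fold change of the 5 subunit genes was 0.23. With upper-quartile normalization 1 passed, with library totals alone 2 passed, all higher, and 1 was called lower without replicate 2 with Dox.

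**Figure D5:**
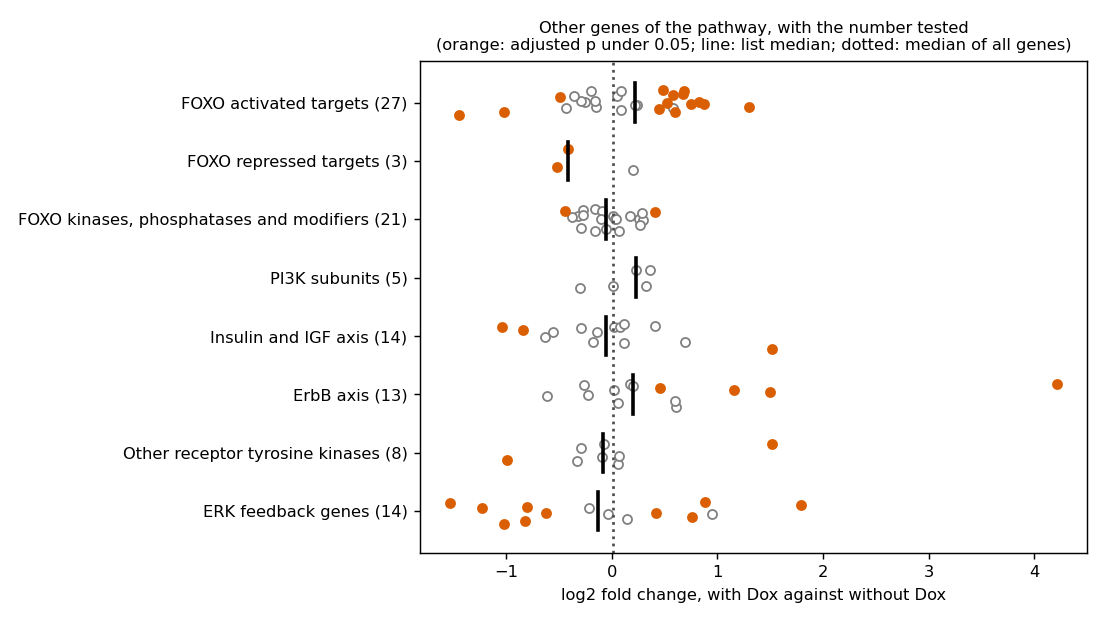
Log2 fold change with Dox against without Dox for the tested genes of 8 lists, with the number tested in brackets, the list median as a line and the median of all genes dotted. FOXO activated targets hold 11 rises and 3 falls past the threshold (orange), and AREG is the point farthest right among the ErbB genes.

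Around ERBB2 and ERBB3, 13 of 21 ligand, receptor and inhibitor genes were tested. Of these, 4 rose and 0 fell by edgeR (30.8% higher, beside 11.9% of all genes tested higher and 13.7% lower), with a median log2 fold change of 0.20. There were 0 at an unadjusted p under 0.05 in the direction of a fall and 0 falls with DESeq2, limma-voom or the exact test. AREG, which encodes the EGFR ligand amphiregulin, had 19, 8 and 31 counts without Dox and 318, 262 and 814 with Dox. Its level of 4.29 ± 1.58 CPM went to 83.0 ± 20.8 CPM (SD, n = 3 each), an 18.6-fold rise (log2 fold change 4.21, standard error 0.25, edgeR adjusted p = 1.272e-09). HBEGF, another EGFR ligand gene, had 7.58, 9.61 and 8.55 CPM without Dox and 20.9, 24.2 and 27.2 CPM with Dox (log2 fold change 1.499, edgeR adjusted p = 4.489e-05). ERRFI1, which encodes a feedback inhibitor of EGFR and ERBB2, had 21.2, 20.8 and 19.7 CPM without Dox and 37.0, 43.1 and 56.0 CPM with Dox (log2 fold change 1.16, edgeR adjusted p = 1.232e-04). The conditions did not overlap for any of these 3 genes. The fourth, ERBIN, had 0.46 (edgeR adjusted p = 0.0294), with overlapping groups, and was chosen after its values were seen.

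The other ErbB receptor genes, EGFR and ERBB4, had log2 fold changes of 0.06 and -0.23 (95% intervals -0.39 to 0.52 and -0.62 to 0.16, edgeR adjusted p = 0.861 and 0.405). NRG1, which encodes the main ligand of ERBB3, had 0, 0 and 1 counts in both conditions, at the limit of detection.

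Around INSR, IGF1R, IRS1 and IRS2, 14 of 25 genes were tested, of which 1 rose and 2 fell, with a median log2 fold change of -0.06. These were 7.14% and 14.3%, near the 11.9% and 13.7% of all genes tested. The ligand genes were hardly read, with no count for INS in any library and 0 to 4 counts for IGF1. GAB2, which encodes a docking protein that recruits PI3K much as IRS proteins do, rose from 6.79, 7.75 and 10.6 CPM to 24.1, 20.6 and 28.4 CPM (log2 fold change 1.52, standard error 0.22, edgeR adjusted p = 8.152e-05). IGFBP2 and IGFBP3, which encode IGF binding proteins, fell by 0.84 and 1.03 on the log2 scale (standard errors 0.13 and 0.24, edgeR adjusted p = 1.379e-04 and 0.00368). GRB10 and GRB14, which encode adaptors that inhibit the insulin receptor and were chosen after their values were seen, had 0.41 and -0.63 at 3 to 22 counts per library (edgeR adjusted p = 0.566 and 0.370).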

How the data were processed

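RNA of 6 libraries was prepared with a QuantSeq 3ʹ kit (REV in the paper's methods, FWD in the labels). The authors used CASAVA 1.8.2, FastQC and STAR on hg38, and deposited 1 table of raw counts, by gene symbol, whose last rows have the form of HTSeq output, a tool that the submitters' processing notes name. The annotation and strand setting are not given in the sources used here. The deposited normalized values of single libraries were not used. Rows that name no gene were left out (reads on no gene 32.5% to 39.5%, ambiguous reads 3.05% to 3.37%). Library totals and counts per gene limit the precision, and reads carry no molecular identifiers.

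Counts were fitted with edgeR 4.0.16 in R 4.3.3 (TMM, filterByExpr, quasi-likelihood test, adjusted p under 0.05 over all genes). Alternatives were DESeq2 1.42.0, limma-voom (limma 3.58.1), the exact test, other normalizations and filters, a fit blocked on replicate number, and leaving out each library. The summing of FOXO3 with FOXO3B was added after the data were seen. Replicates all differed beyond sampling noise (chi-square per degree of freedom 4.35 to 12.2). The 10 genes, the lists (compiled by hand) and the tests were chosen with earlier results of these data known. Beyond the 10 genes, those named were, for each list and direction, the 3 of smallest adjusted p among calls with a mean of at least 20 counts; others were chosen after their values were seen. Positions are those of GENCODE on hg38. The planned protein sequence features were not analysed here.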

Additional observations from a re-analysis of the deposited data

How the results depend on the processing

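Of the 10 genes, ERBB2 and FOXO3 kept their direction and side of the threshold in each of their alternatives. The 2 genes called higher were 1 with DESeq2 and without a filter, 3 with upper-quartile normalization and 4 with library totals alone. They were 1 to 2 with each library left out. The 2 called lower were 1 with DESeq2, upper-quartile normalization, library totals alone or a minimum of 10 counts per library, and 0 to 2 with each library left out; the 0 was without replicate 3 without Dox, where FOXO1 and IRS1 both missed the threshold. The 3 genes below, which were not called, changed sign. INSR was 0.029 with library totals alone and -0.17 to 9.230e-04 with each library left out. IGF1R was -0.089 with limma-voom, -0.0077 with the replicate block and -0.35 to 0.38 with each library left out. IRS2 was 0.0047 with upper-quartile normalization, 0.070 with library totals alone and -0.19 to 0.11 with each library left out. The causes were not tested. With library totals alone, all genes had a median of 0.14 on the log2 scale, against 0.02, and 65.7% of calls were higher, against 46.4%, so gains of single genes under that setting are to be read against this shift. ABHD5 stayed between 0.81 and 1.06. Between libraries of the same replicate number, deviations from the mean of the condition correlated across genes at -0.01, 0.23 and 0.09. Whether the libraries are paired by replicate number is not known. With the replicate block, 3537 of all genes tested were called, against 3125 without it. The 10 genes still had 2 called higher and 2 lower with the block. IGF1R had too few counts to be tested under the strictest filter. Counts of under 35 for ERBB2 without Dox and under 20 for IGF1R limit the precision of both.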

Other observations

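Among 18 other receptor tyrosine kinase genes, 8 passed the filter on low counts. FGFR1, a fibroblast growth factor receptor gene, had 20.6 ± 1.46 CPM without Dox and 58.8 ± 7.10 CPM with Dox (SD, n = 3 each), and rose by 1.52 on the log2 scale (standard error 0.16, edgeR adjusted p = 1.925e-06). MET, the hepatocyte growth factor receptor gene, had 54.7 ± 6.83 CPM without Dox and 27.5 ± 1.03 CPM with Dox (SD, n = 3 each), and fell by 0.99 (standard error 0.15, edgeR adjusted p = 1.169e-04). Both calls held in each alternative. The other 6 did not pass the test, and the median log2 fold change of the 8 was -0.08. The shares called were 12.5% higher and 12.5% lower, near the 11.9% and 13.7% of all genes tested.

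Genes that ERK signalling is known to raise, often as feedback on growth factor receptors, were all tested, 14 of 14. They parted into 4 rises and 6 falls, 28.6% and 42.9% of the list, beside 11.9% and 13.7% of all genes tested, with a median log2 fold change of -0.12. EGR1, SPRY1 and ETV5 rose by 0.89, 0.76 and 0.42 on the log2 scale (edgeR adjusted p = 0.00103, 0.0262 and 0.0396). PHLDA1, DUSP6 and SPRY2 fell by 1.53, 1.02 and 0.62 (edgeR adjusted p = 6.157e-04, 1.467e-04 and 0.00924). SPRY4 and ETV4, chosen after values were seen, fell by 0.82 and 0.80 (edgeR adjusted p = 0.0118 and 0.0107), opposite in sign to SPRY1 and ETV5. SPRED3 and FOS, below the count limit for naming, were also chosen after values were seen. SPRED3 had 7, 5 and 7 counts without Dox and 28, 16 and 39 with Dox, and rose by 1.79 (edgeR adjusted p = 0.00232). It is among the 4 rises, but it passed the filter on low counts only through the libraries with Dox. Its call therefore depends on the group in which it was high. FOS, with 9 to 39 counts, fell by 1.23 (edgeR adjusted p = 0.0262), opposite in sign to EGR1. SPRY1 lost its call when replicate 1 or 3 without Dox or replicate 3 with Dox was left out, and ETV5 when replicate 1 or 2 without Dox or replicate 1 or 3 with Dox was left out, with DESeq2 (adjusted p = 0.0572) and without a filter (edgeR adjusted p = 0.0677). The 4 rises were 2 without replicate 1 of the libraries without Dox, and 2 without replicate 3 with Dox.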
